A study of Eublepharis macularius with 18 samples.

Results

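The uninjured ventricle of the leopard gecko (Eublepharis macularius) was compared with ventricle taken 100 days after cryoinjury, to ask which cardiac, matrix and vascular genes were back at the control level and which were not. The genes described are the 9848 of 12376 rows of the deposited table whose mean over the 3 control and 3 cryoinjured libraries reached 10 normalized counts. The row just inside that minimum, Armc2, had a mean of 10.002, and the row just outside it, Chac2, had a mean of 9.99. The 2528 rows below it were not tested. In the series, polyA RNA of 18 geckos was sequenced in 6 groups of 3 animals, with RNA prepared separately for each animal. Control geckos were uninjured, sham geckos carry no stated sampling time, and the remaining animals were sampled at 3, 14, 30 or 100 days post injury (dpi). The injury was made by touching the exposed ventricle with a metal probe cooled in liquid nitrogen after opening the pericardium, and tissue was taken from the region beside the injury. The labels give no genotype, age, strain or sequencing batch.

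In a heart that heals after cryoinjury, dead muscle is cleared, fibroblasts lay down a provisional collagen-rich matrix, vessels and endocardium grow into the area, and the matrix is later remodelled. Zebrafish and some other vertebrates then replace the lost muscle, whereas adult mammals keep a collagen scar. Bulk RNA of the bordering ventricle reports the sum of muscle, fibroblasts, endothelium, nerve and blood, and fewer cells of a type and less RNA per cell cannot be told apart.

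Heart muscle markers were high in both groups, whereas genes that mark the chamber in mammals were mixed and do not by themselves show ventricle. Levels in FPKM, the length-scaled unit of the authors' other table, averaged 5736 in control and 6246 at 100 dpi for Myl7, an atrial light chain in mammals, and 4209 and 4077 for Tnnt2, cardiac troponin T. Irx4, a ventricular transcription factor in mammals and birds, averaged 16.3 and 14.9 FPKM. Myl2, a ventricular light chain in mammals, had no counts in any control or 100 dpi library. Gene names are those of the mouse genes by which the authors annotated the gecko transcripts.

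At 100 dpi, 1190 genes (12.1% of those tested) differed from control in limma's test at a Benjamini-Hochberg adjusted p under 0.05. Of these, 749 were higher (7.61%) and 441 were lower (4.48%). The rises were the larger changes, with a median log2 difference of 0.72 and 187 genes beyond 2-fold, against a median of -0.50 and 36 genes beyond 2-fold among the falls. A p above the threshold does not show a return to control, so the 95% interval of each difference was read as well. For 6567 genes (66.7%) the difference was not called and its interval lay within 2-fold of control in either direction. A further 673 called genes (6.83%) had an interval within 2-fold, which brings the total within 2-fold to 7240 (73.5%). For the remaining 2091 genes (21.2%) the difference was not called and the interval reached beyond 2-fold, so these data do not place them. All 3 libraries at 100 dpi lay above all 3 controls in 17.1% of all genes and below them in 17.4%. Of the 749 rises, 466 were also called higher against sham (5.58% of all genes were), and of the 441 falls, 111 were also called lower against sham (1.58% of all genes were). The sham and control comparisons share the 100 dpi libraries.

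Libraries held 16075060 to 19825686 recovered reads in control and 16892131 to 34898541 at 100 dpi, with 100 dpi replicate 3 the deepest of all 18. On the first principal component of all libraries, which held 19.1% of the variance, the 30 and 100 dpi libraries scored 24.0 to 31.7, and the scores of the other groups ran from -37.0 to -3.32. A single row annotated Lars2 took 6.91% to 7.58% of the reads at 100 dpi and 3.52% to 5.20% in control. Values also followed transcript length: per doubling of length the log2 deviation from the mean of all libraries was -0.09 to -0.05 in control and 0.01 to 0.06 at 100 dpi. Genes called higher had a median length 1.76 times that of all tested genes, and genes called lower 0.80 times. With a smooth (loess) length trend removed from each library, 426 genes were higher and 667 lower. The share of calls that were rises thus went from 62.9% to 39.0%. Of the calls above, 416 of the rises and 369 of the falls were kept. The part of length, of the Lars2 row and of whatever sets the 30 and 100 dpi libraries apart was not tested. Each call was also refitted 6 times, each time without 1 of the 6 libraries: 342 of the 749 rises and 80 of the 441 falls were called in all 6. Without 100 dpi replicate 1, 453 genes were higher and 145 lower. The count of lower genes was 242 without 100 dpi replicate 2 and 230 without replicate 3. It was 263, 232 and 186 without control replicates 1, 2 and 3.

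**Figure D1:**
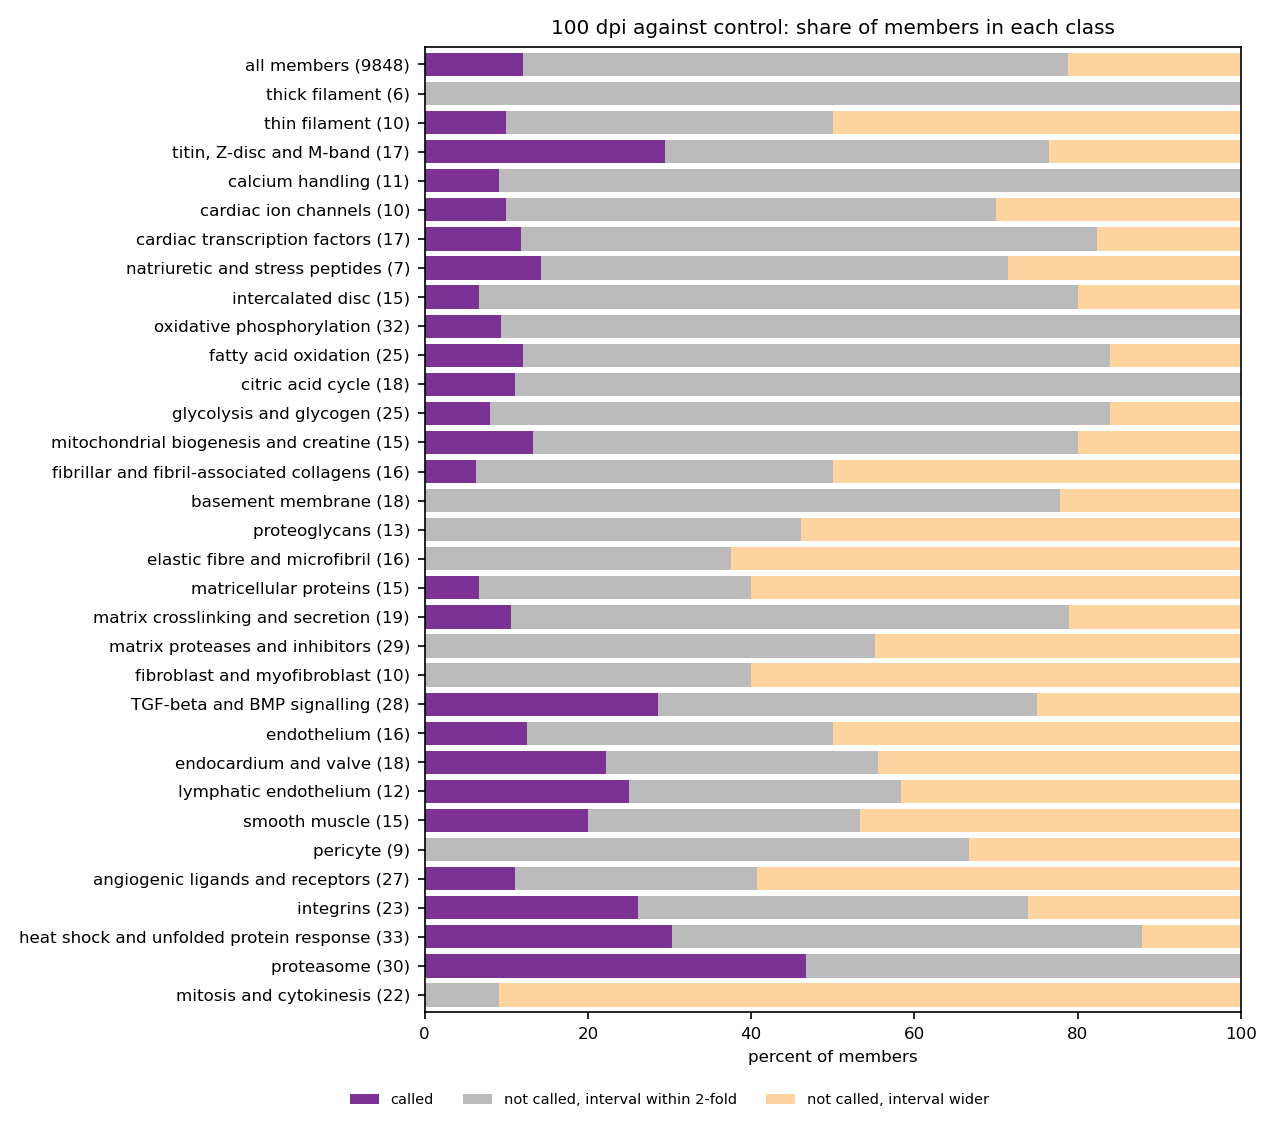
Percent of the members of each gene list (horizontal axis; number of members in brackets) that were called different at 100 dpi, not called with a 95% interval within 2-fold of control, or not called with a wider interval. All 6 thick filament members fall in the middle class, against 66.7% of all 9848 genes, and the proteasome list has the widest called share, 14 of 30.

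Genes of the myosin-based thick filament were within 2-fold of control, as were 73.5% of all genes. All 6 measured members of this list had an interval within 2-fold of control, with a median log2 difference of 0.07, and none was called by limma, at an unadjusted p under 0.05, by edgeR or by DESeq2. Myh6, the main cardiac myosin heavy chain row, had 322895, 293161 and 259399 normalized counts in control and 315814, 269842 and 359320 at 100 dpi. The 2 groups overlapped, and the log2 difference was 0.11 (95% interval -0.36 to 0.57). Myh7, the slow cardiac myosin heavy chain in mammals, had 36098, 27441 and 25996 in control and 34620, 34212 and 35468 at 100 dpi, a difference of 0.24 (interval -0.14 to 0.62). It was named after its values were seen. Myl7 (0.13, interval -0.31 to 0.57) was likewise within 2-fold.

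Titin, the giant spring of the sarcomere, was higher than control. Ttn had 72308, 54046 and 73875 normalized counts in control and 105675, 124101 and 143339 at 100 dpi. Every 100 dpi library exceeded every control, by 0.90 ± 0.18 (SE) on the log2 scale (limma, adjusted p = 0.00464), and the gene was also called against sham (0.83, adjusted p = 0.00951). The row belongs to a very long transcript, and with the length trend removed the difference was 0.54 and was no longer called (adjusted p = 0.0685). Mypn, myopalladin, which anchors actin and titin-associated proteins at the Z-disc, rose to 3013, 2649 and 3313 from 1543, 2101 and 1259 in control (log2 difference 0.90 ± 0.20 SE, limma adjusted p = 0.01). It kept its call with the length trend removed and in all 6 refits.

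Other proteins that link and brace the myofibrils were lower than control. Synpo2l, a Z-disc protein, had 2805, 4232 and 4148 in control and 1168, 1232 and 1881 at 100 dpi, without overlap (-1.39 ± 0.32 SE, limma adjusted p = 0.011). Des, the muscle intermediate filament desmin, had 75625, 56012 and 65233 in control and 30438, 37462 and 52479 at 100 dpi (-0.74 ± 0.19 SE, adjusted p = 0.0216). Flnc, filamin C, which crosslinks actin at the Z-disc, had 15587, 57106 and 53241 in control against 10504, 11520 and 13934 at 100 dpi (-1.60 ± 0.39 SE, adjusted p = 0.0155). In each of the 3 genes every 100 dpi library lay below every control, and control replicate 1 of Flnc was close to the 100 dpi range. Sham libraries of Flnc were also low, at 12818, 13748 and 19402. Against sham none of the 3 was called by limma, with log2 differences of -0.39 (Synpo2l, adjusted p = 0.519), -0.46 (Des, adjusted p = 0.163) and -0.34 (Flnc, adjusted p = 0.675). These calls were not steady to single libraries: Synpo2l was lost without 100 dpi replicate 1 (adjusted p = 0.0501), Flnc without that library, control replicate 2 or control replicate 3 (at most 0.0709), and Des without 100 dpi replicate 1 or 2 or control replicate 1 or 3 (at most 0.108). In all, the list of titin, Z-disc and M-band genes had 2 of 17 members higher (11.8%, against 7.61% of all genes), 3 lower (17.6%, against 4.48%) and 8 within 2-fold of control. The count of lower members was 0 without 100 dpi replicate 1, 1 without control replicate 3 and 1 in the fit of only the 2 groups.

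The actin-based thin filament leaned below control without passing the test for most members. Of 10 members 9 had a negative difference, with a list median of -0.43, but limma called only Lmod2 and 4 had an interval within 2-fold. Library medians were -0.78, -0.23 and -0.14 at 100 dpi and 0.06, -0.24 and 0.33 in control. Only 100 dpi replicate 1 thus lay below all controls. Against sham the list median was -0.24, and limma called 1 member higher and 0 lower. Lmod2, leiomodin 2, which lengthens cardiac thin filaments, had 9669, 14361 and 17993 in control and 5411, 6488 and 10170 at 100 dpi. These ranges overlapped narrowly, with a difference of -0.94 ± 0.26 SE (limma adjusted p = 0.027) that was lost without 100 dpi replicate 1 or 2 or control replicate 2 or 3 (adjusted p at most 0.122). Tnnt2, troponin T, showed no such lean: it had 93498, 78812 and 111286 in control and 90456, 89888 and 96476 at 100 dpi (-0.02, interval -0.51 to 0.46).

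**Figure D2:**
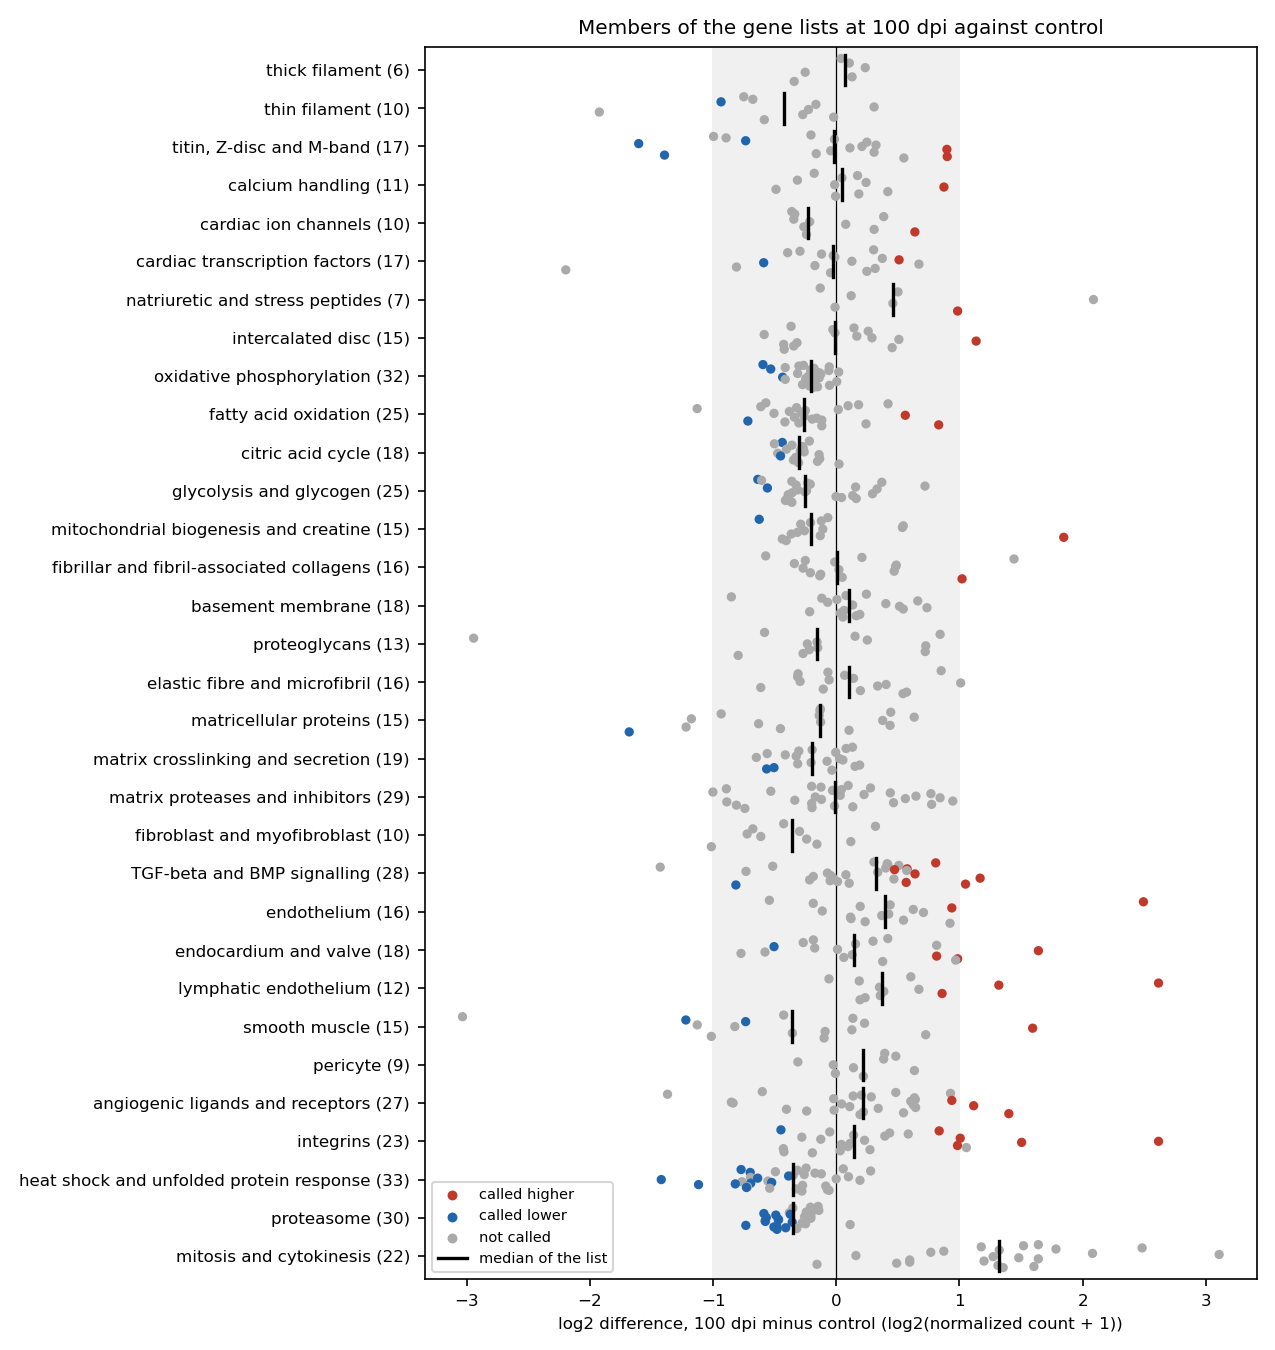
Log2 difference between 100 dpi and control (horizontal axis) of every measured member of each list, coloured by limma's call, with the list median as a bar and the 2-fold band shaded. Thick filament points cluster at 0, the matrix lists scatter around 0 with few calls, and the proteasome points lie to the left with 14 of 30 called lower.

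Calcium handling genes were within 2-fold of control with 1 exception. Of 11 members of this list, 10 had an interval within 2-fold (90.9%, against 73.5% of all genes) and the median difference was 0.05. Limma called 1 higher (9.09%, near the 7.61% of all genes) and 0 lower. The fit of only the 2 groups called 2 higher, and 1 was lower with the length trend removed. Atp2a2, the pump that returns calcium to the sarcoplasmic reticulum, had 40887, 21558 and 55330 in control and 33524, 31784 and 31546 at 100 dpi (-0.18, interval -0.73 to 0.37). Casq2, the calcium-binding protein of that store, had 21062, 10917 and 21810 and then 13556, 19595 and 18372 (-0.01, interval -0.60 to 0.57). In both genes the groups overlapped. The exception was Itpr2, an inositol trisphosphate receptor and calcium release channel, which rose from 520, 633 and 561 to 1047, 1018 and 1071. Its groups were well apart, by 0.87 ± 0.17 SE (limma, adjusted p = 0.00493), and its call held against sham (0.83, adjusted p = 0.00865) and in all 6 refits.

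Among the genes for electrical coupling and identity, limma called 1 or 2 members of each list. It called 10% of ion channels and 6.67% of intercalated disc genes higher, and 5.88% of transcription factors in each direction. These shares are near those of all genes, 7.61% higher and 4.48% lower. The list medians were -0.23 for ion channels, -0.02 for transcription factors, -0.01 for the intercalated disc and 0.46 for natriuretic and stress genes. Kcnq1, the channel of the slow delayed rectifier potassium current, was the 1 of 10 cardiac ion channel genes called. It had 416, 406 and 436 in control and 648, 766 and 561 at 100 dpi (0.64 ± 0.14 SE, limma adjusted p = 0.00894). Its call was kept in all 6 refits, and against sham it missed the threshold (0.46, adjusted p = 0.0554). Of 17 cardiac transcription factors 14 were within 2-fold (82.4%, against 73.5% of all genes). Nkx2-5, a core factor of cardiac muscle identity, was lower at 2035, 1787 and 1994 than in control at 2945, 2673 and 3138 (-0.59 ± 0.15 SE, limma adjusted p = 0.0183). Without 100 dpi replicate 2 or control replicate 1 or 3 it lost its call (adjusted p at most 0.0675). Against sham it was called too (-0.64, adjusted p = 0.0157). Mef2c, a factor of muscle and endothelium, was higher at 1852, 1793 and 1815 than at 1473, 1118 and 1266 (0.51, adjusted p = 0.024), and lost its call with the length trend removed (adjusted p = 0.139) and without any 100 dpi library or control replicate 2 or 3 (at most 0.0977). The intercalated disc list had 1 of 15 members called, Gjc1 (connexin 45), and that call was lost in all 6 refits (adjusted p at most 0.132). Npr3, the natriuretic peptide clearance receptor, was the 1 of 7 natriuretic and stress genes that limma called (14.3% higher, against 7.61% of all genes). Its call (0.99, adjusted p = 0.0377) was again lost in all 6 refits (at most 0.105), although it was called against sham (1.59, adjusted p = 0.00336). DESeq2 called 3 of the 7 higher, 3 were higher at an unadjusted p under 0.05, and limma called 3 higher than sham. Library medians of this list were 0.27, 0.78 and 0.31 at 100 dpi, above all 3 controls at -0.37, 0.16 and 0.18. With the length trend removed the list median was 0.20 and limma called 0 members higher (Npr3 adjusted p = 0.165). Against sham the list median was 0.15.

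The machinery of mitochondrial energy supply was within 2-fold of control, on the lower side. All 32 oxidative phosphorylation genes and all 18 citric acid cycle genes had intervals within 2-fold, against 73.5% of all genes. Of the first list 30 of 32 differences were negative (median -0.21), and of the second 17 of 18 (median -0.30), while the median over all genes was -0.01. Limma called 3 and 2 of them lower (9.38% and 11.1%, against 4.48% of all genes). Atp5a1, the alpha subunit of ATP synthase, had the lowest p of these (-0.60, adjusted p = 0.0136) and lost its call without 100 dpi replicate 1 (adjusted p = 0.0528). Across the 6 refits 0 to 2 of the first list and 0 to 1 of the second were lower, with 0 in both without 100 dpi replicate 1, and DESeq2 called 5 and 9. Fatty acid oxidation had 19 of 25 (76%) and glycolysis 21 of 25 (84%) members within 2-fold, the former near the share of all genes. In fatty acid oxidation limma called 2 higher (8%, against 7.61% of all genes) and 1 lower (4%). In glycolysis it called 0 higher and 2 lower (8%), and 17 of 25 differences were negative (median -0.25, and -0.37 against sham). Library medians of the glycolysis list at 100 dpi, -0.42, -0.12 and -0.26, lay below all 3 controls.

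A pair of regulators of this metabolism stood above control, although most members of their lists were on the lower side. Of the mitochondrial biogenesis and creatine genes 12 of 15 differences were negative (median -0.21), and of the fatty acid oxidation genes 18 of 25 (median -0.26). In the first list limma called 1 higher (6.67%, against 7.61% of all genes) and 1 lower (6.67%, against 4.48%). DESeq2 called 1 higher and 4 lower in it. Ppargc1b, a coactivator of mitochondrial genes, had 579, 297 and 678 in control and 1824, 2434 and 1227 at 100 dpi. The lowest 100 dpi library was well above the highest control, with a log2 difference of 1.85 ± 0.28 SE (limma, adjusted p = 0.000791). Sham libraries stood at 644, 546 and 436 and 30 dpi libraries at 1990, 2814 and 2739. Ppara, the nuclear receptor that drives fatty acid oxidation genes, rose from 314, 456 and 423 to 675, 643 and 788 (0.83 ± 0.17 SE, adjusted p = 0.00563). Each was called in all 6 refits, against sham and with the length trend removed. Ckm, muscle creatine kinase, was lower at 167458, 174027 and 163496 than at 257827, 230393 and 294592 in control (-0.63, limma adjusted p = 0.0441). Its groups were apart, but that call was lost in all 6 refits (adjusted p at most 0.144).

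The medians of the collagen and elastic fibre lists stood high at 14 dpi and close to control at 100 dpi, but most single members were not placed within 2-fold of control. Fibrillar and fibril-associated collagens had library medians of 1.24 to 1.46 above the control mean at 14 dpi on the log2 scale. At 100 dpi they were 0.08 to 0.18, inside the control range of -0.19 to 0.26. The elastic fibre list had medians of 0.76 to 1.501 at 14 dpi and of -0.10 to 0.07 at 100 dpi. Of 16 collagens, 1 was called different from control at 100 dpi, 7 had an interval within 2-fold (73.5% of all genes did) and 8 were not called with wider intervals. The differences were positive in 8 and negative in 8, with a median of 0.00. That median was -0.21 with the length trend removed and -0.28 against sham. Col9a2, a collagen outside this list, was called lower than control and is given below with the largest falls. Col1a1, the alpha 1 chain of collagen I, had 2655, 5827 and 3200 normalized counts in control, 14394, 15046 and 10407 at 14 dpi, and 3369, 4226 and 3391 at 100 dpi. The 100 dpi libraries lay inside the control range (-0.01, interval -0.96 to 0.94). Sparc, a collagen-binding secreted protein, had 6409, 6482 and 6867 in control, 12841, 14287 and 12856 at 14 dpi, and 5313, 6333 and 6517 at 100 dpi, with the narrower interval of -0.44 to 0.19. For Col3a1, collagen III, the interval of -1.001 to 0.46 reached the 2-fold bound, and 100 dpi replicate 1 stood low at 8756 beside 20916 and 15656.

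**Figure D3:**
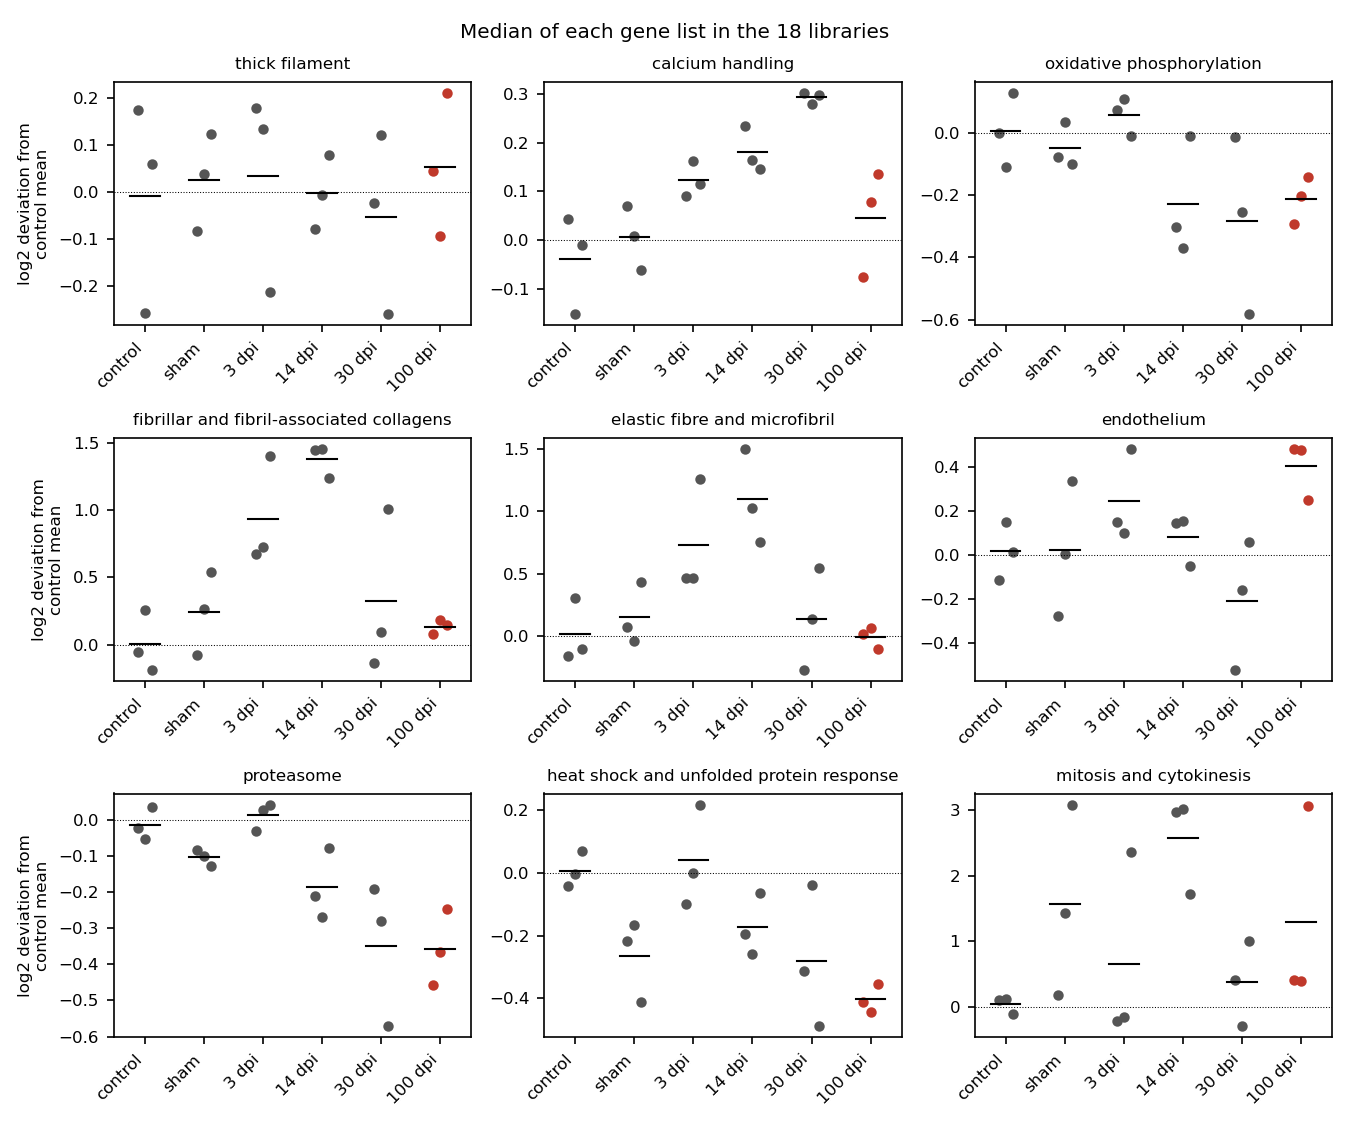
Median log2 deviation from the control mean over the members of 9 gene lists (vertical axes, each with its own scale) in each of the 18 libraries by group, with 100 dpi in red and the mean of each group as a bar. Collagens peak at 14 dpi at 1.24 to 1.46 and are at 0.08 to 0.18 at 100 dpi, whereas the 3 proteasome medians at 100 dpi, -0.46 to -0.25, lie below all 3 controls.

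Basement membrane genes had 14 of 18 intervals within 2-fold of control and a median of 0.11. Limma called 0 of them, with 2 higher and 1 lower at an unadjusted p under 0.05, 1 higher by edgeR and 2 higher by DESeq2. Col4a1, collagen IV, had 7594, 6138 and 8495 in control and 5769, 7743 and 6940 at 100 dpi (-0.12, interval -0.43 to 0.19). Collagen crosslinking and secretion genes had 15 of 19 within 2-fold. Here limma called Plod3, a lysyl hydroxylase (-0.51, adjusted p = 0.0213), and Serpinh1, the collagen chaperone HSP47 (-0.57, adjusted p = 0.0359), lower. Plod3 had 1101, 962 and 1048 in control and 720, 726 and 741 at 100 dpi, without overlap, but the call was kept without control replicate 2 only (adjusted p at most 0.0721 in the other 5 refits). Serpinh1 likewise kept its call in 1 of 6 refits (at most 0.137).

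Intervals were wide in other matrix lists too, as they were for collagens. Elastic fibre genes had 6 of 16 within 2-fold, proteoglycans 6 of 13, matricellular proteins 5 of 15, matrix proteases and their inhibitors 16 of 29, and the fibroblast list 4 of 10, against 73.5% of all genes. In the matricellular list limma called 1 member, Tnc, and it called 0 members of the other 4. At an unadjusted p under 0.05 the counts were 2 higher in elastic fibres, 2 higher in proteoglycans, 3 higher and 3 lower among proteases and 1 higher in fibroblasts. EdgeR called 1 member of those 4 lists (higher, fibroblasts) and DESeq2 called 3. The fibroblast list nonetheless leaned low: 8 of its 10 members had a negative difference, with a median of -0.36. Its library medians at 100 dpi were -0.35, -0.38 and -0.54, below all 3 controls at -0.15, 0.09 and -0.02. Dcn, decorin, an abundant small proteoglycan that binds collagen, had 3152, 3594 and 2773 in control and 3445, 4347 and 2881 at 100 dpi (0.15, interval -0.17 to 0.47).

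Tnc and Col8a2 were also called different from control, in opposite directions. Tnc, tenascin C, a matricellular protein of wounded tissue, had 117, 195 and 86.9 in control, 757, 591 and 525 at 14 dpi, and 43.9, 18.8 and 68.5 at 100 dpi. All 3 libraries at 100 dpi were below all controls (-1.68 ± 0.39 SE, limma adjusted p = 0.0125). The call was lost without control replicate 2 (adjusted p = 0.0567) and in the fit of only the 2 groups (0.0836), and against sham it was not made (-1.11, adjusted p = 0.102). Col8a2, a chain of the network-forming collagen VIII, was higher at 1143, 1584 and 1805 than at 593, 772 and 852 in control (1.02 ± 0.28 SE, adjusted p = 0.0259), and also against sham (1.22, adjusted p = 0.0138). It lost its call against control without 100 dpi replicate 2 or 3 or control replicate 1 or 2 (adjusted p at most 0.0957).

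The genes raised at 14 dpi over sham gave another view of the return. Neither of those groups enters the difference between 100 dpi and control. Both enter the shared spread of the model, so the calls and intervals of the 2 comparisons are not independent. Limma called 65 genes higher at 14 dpi than in sham (0.66%). At 100 dpi, 25 of the 65 (38.5%) had an interval within 2-fold of control, against 73.5% of all genes, and 23 (35.4%) were called higher than control, against 7.61% of all genes. Slc35d1 and Fam126b are in both counts, so 23 of the 25 were within 2-fold and not called. These genes are named after their values were seen. Tnc was the only member called lower, and 18 of the 65 were not called and had wider intervals. Of these 65 genes 17 are in the matrix and fibroblast lists. Of those 17, 10 were within 2-fold of control at 100 dpi, 0 were called higher by limma, and their median log2 difference was 0.02, after 1.39 at 14 dpi over sham. The other 48 had a median of 0.60 at 100 dpi after 1.52 at 14 dpi, and all 23 of the genes still called higher were among them. The lists were chosen with earlier results of these data known, so this split is a description.

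Col12a1, a fibril-associated collagen, was high at 14 dpi and overlapped control at 100 dpi, with an interval that reached beyond 2-fold. It had 77.4, 111 and 169 normalized counts in sham, 834, 989 and 756 at 14 dpi, and 107, 73.2 and 76.2 at 100 dpi beside 85.6, 87.1 and 51.6 in control. The last 2 groups overlapped (0.21, interval -0.69 to 1.11). Thbs2, thrombospondin 2, had 170, 260 and 203 at 14 dpi and 11.5, 8.04 and 11.6 at 100 dpi, below its controls at 22.1, 27.3 and 26.2, a difference that limma did not call (-1.22, adjusted p = 0.0885). Fbn1, fibrillin 1, and Col1a2 were within 2-fold of control (-0.29 and -0.34). Fbn1 was named after its values were seen. Among the genes that stayed high was Lifr, a receptor chain for leukaemia inhibitory factor, chosen after its values were seen. It had 140, 123 and 185 in control, 351, 238 and 276 at 14 dpi, and 1050, 1320 and 1171 at 100 dpi, a log2 difference of 2.99 ± 0.17 SE from control (limma, adjusted p = 4.45e-08). Pdk3, a kinase that inhibits pyruvate dehydrogenase and was chosen in the same way, had 548, 509 and 589 in control and 2746, 2854 and 2976 at 100 dpi (2.38 ± 0.12 SE, adjusted p = 1.5e-08). Both genes were further above control at 100 dpi than they had been above sham at 14 dpi, when the differences were 0.85 and 1.12.

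**Figure D4:**
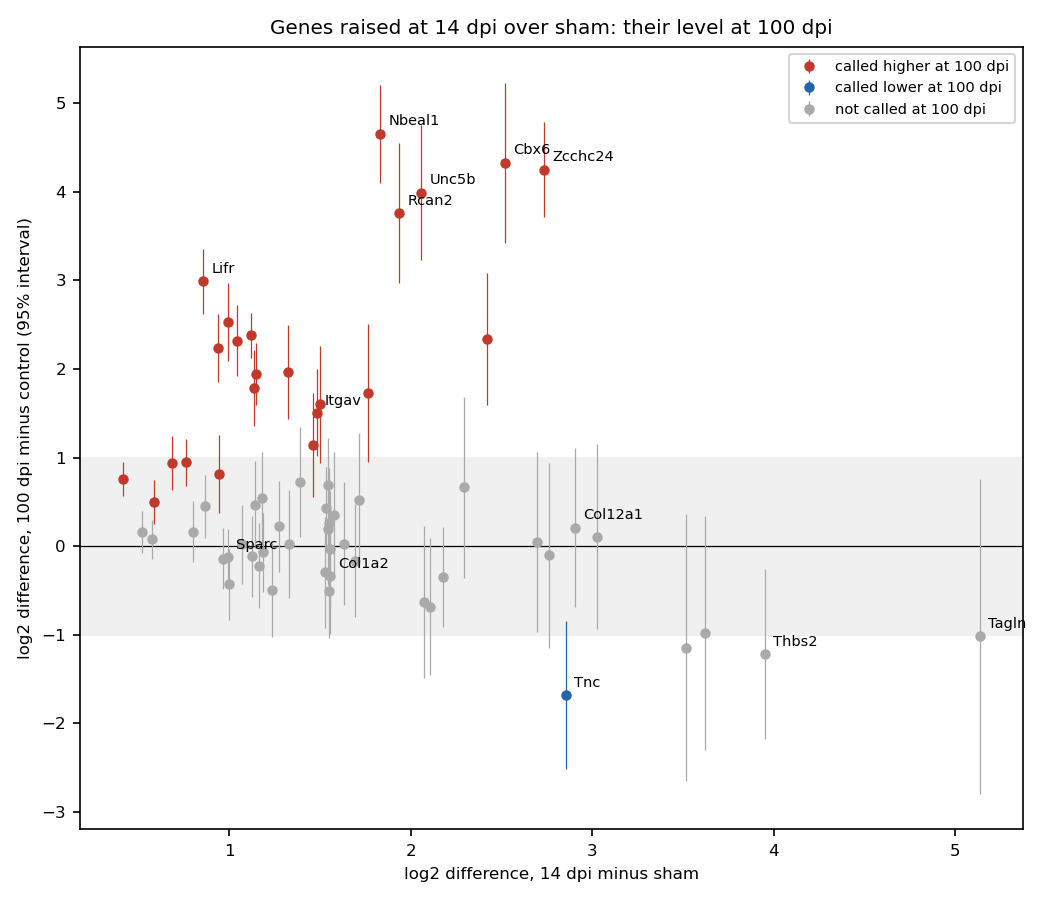
The 65 genes called higher at 14 dpi than in sham, by their log2 difference at that time (horizontal axis) and their log2 difference between 100 dpi and control (vertical axis, with 95% intervals; 2-fold band shaded). Col12a1, Sparc and Col1a2 lie near 0 at 100 dpi, whereas 23 genes, among them Nbeal1, Zcchc24 and Lifr, lie above with calls and Tnc lies below.

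Several genes of the signalling pathways that regulate matrix synthesis were above control. Of 28 genes for transforming growth factor beta and bone morphogenetic protein signalling, limma called 7 higher (7.61% of all genes were) and 1 lower, with a list median of 0.32. The calls were Tgfbr1, Tgfbr3, Acvr2a, Bmpr1a, Bmpr2, Smad5 and Skil, and the lower call was Tgif1 (-0.82, adjusted p = 0.0493). Tgfbr3, betaglycan, a co-receptor, had 4195, 3186 and 4049 in control and 9263, 7841 and 6614 at 100 dpi. The groups were apart by 1.05 ± 0.16 SE (limma, adjusted p = 0.000821). Acvr2a, an activin type II receptor, rose from 712, 632 and 508 to 1280, 1015 and 944 (0.81, adjusted p = 0.00131). Smad5, a transducer of bone morphogenetic protein signals, rose from 266, 291 and 275 to 801, 584 and 518 (1.17, adjusted p = 0.00296). These 3 genes were called against sham as well and in all 6 refits. Bmpr1a, a type I receptor (0.58, adjusted p = 0.00134), was also called in all 6 refits but not with the length trend removed (adjusted p = 0.0936). Skil, a corepressor that restrains the pathway (0.64, adjusted p = 0.0249), lost its call with the length trend removed (0.231) and without 100 dpi replicate 1 or control replicate 1 or 2 (at most 0.113). Bmpr2 (limma adjusted p = 0.0359) lost its call in all 6 refits (at most 0.121) and with the length trend removed (0.464). The count of higher members was 4 without 100 dpi replicate 1 or control replicate 1 or 2, and 4 with the length trend removed. The count of lower members was 1 without control replicate 3, and 0 in every other refit and in the fit of only the 2 groups.

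The endothelial gene Cdh5 was far above control, and few others of its list were called. Cdh5 encodes VE-cadherin, the adhesion molecule of endothelial junctions. It had 204, 218 and 139 normalized counts in control and 1223, 879 and 1046 at 100 dpi, with 207, 292 and 391 in sham and 671, 602 and 977 at 30 dpi. The 100 dpi libraries were far above control, by 2.49 ± 0.26 SE on the log2 scale (limma, adjusted p = 3.03e-05), and above sham (1.85, adjusted p = 0.00045). Of 16 endothelial genes 13 had a positive difference (median 0.40), limma called 2 higher (12.5%, against 7.61% of all genes) and DESeq2 4. An interval within 2-fold was found for 6, and 8 were not called with wider intervals. Limma's count was 1 without 100 dpi replicate 1 or control replicate 1. The other call was Flt1, a receptor for vascular endothelial growth factor, with 302, 546 and 458 in control and 865, 706 and 872 at 100 dpi (0.94 ± 0.24 SE, limma adjusted p = 0.0211). It was lost without 100 dpi replicate 1 or 3 or control replicate 1 (adjusted p at most 0.0914). Kdr, the main signalling receptor for that factor, had 3468, 4764 and 4732 in control and 6219, 8618 and 5353 at 100 dpi and was not called (0.63, adjusted p = 0.063). Whether Cdh5 differed from the other endothelial genes was not tested.

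Adhesion receptors and lymphatic markers included further rises. Limma called 5 of 23 integrins higher (21.7%, against 7.61% of all genes). The count was 4 without 100 dpi replicate 3 or control replicate 1, and 3 without any one of the other 4 libraries or with the length trend removed. Itgav, the alpha V chain that binds vitronectin and latent transforming growth factor beta, had 435, 288 and 520 in control and 1512, 932 and 1062 at 100 dpi (1.51 ± 0.23 SE, adjusted p = 0.000791). Itga9, the alpha 9 chain needed for lymphatic valves in mice, had 15.1, 11.1 and 20.8 in control and 76.4, 112 and 112 at 100 dpi (2.62 ± 0.49 SE, adjusted p = 0.00324). In both genes the groups were well apart, and both were called against sham and in all 6 refits. Itga9 is also 1 of the 3 of 12 lymphatic genes called higher (7.61% of all genes were). Of that list 4 had an interval within 2-fold and 5 were not called with wider intervals. Another is Stab1, a scavenger receptor of lymphatic and sinusoidal endothelium and of some macrophages, at 1970, 1533 and 1330 against 943, 886 and 804 in control (0.86 ± 0.13 SE, adjusted p = 0.000791). The third is Mmrn1, multimerin 1 (1.32, adjusted p = 0.0181), which lost its call without 100 dpi replicate 3 or control replicate 1 (adjusted p at most 0.075). The 9 rows of the macrophage list summed to 2576 to 4127 in control and 2569 to 4291 at 100 dpi. The medians over its 8 tested members were -0.32, 0.58 and 0.76 at 100 dpi and -0.09, -0.34 and 0.36 in control, so replicates 2 and 3 lay above all controls. The part of macrophages in the level of Stab1 was not tested.

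Each higher call among the endocardial and angiogenic genes was lost in several of the 6 refits. Of 27 angiogenic ligands and receptors limma called 3 higher, namely Flt1, Vegfa and Nrp1, and 16 were not called with wide intervals. This is 11.1% higher, near the 7.61% of all genes. Vegfa, the main endothelial growth factor, had 51.3, 52.7 and 147 in control and 159, 262 and 181 at 100 dpi (1.40 ± 0.38 SE, limma adjusted p = 0.0264). Control replicate 3 was close to the lowest 100 dpi library, and the call was lost without 100 dpi replicate 2 or 3 or control replicate 1 or 2 (adjusted p at most 0.102). Nrp1, a co-receptor for that factor (1.12, adjusted p = 0.04), was lost in all 6 refits (at most 0.131) and with the length trend removed (0.08). Without control replicate 1 none of the 3 was called. Of 18 genes of the endocardium and valve list limma called 3 higher (16.7%, against 7.61% of all genes) and 1 lower (5.56%, against 4.48%). An interval within 2-fold was found for 7, and 8 were not called with wider intervals. The higher calls were Nfatc1, Npr3 and Jag2, and each was lost without 100 dpi replicate 1 (adjusted p over all refits at most 0.108). The list had 0 higher calls in 5 of the 6 refits and 2 without 100 dpi replicate 3. With the length trend removed it had 1, as limma no longer called Nfatc1 (adjusted p = 0.0665) or Npr3 (0.165). The list median was 0.14, and -0.03 with the length trend removed. Gata5, a transcription factor of endocardium, was lower at 5833, 4850 and 5066 than at 6813, 7830 and 7685 in control, without overlap (-0.51 ± 0.10 SE, limma adjusted p = 0.004) and in all 6 refits. Against sham it missed the threshold (-0.31, adjusted p = 0.0631).

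Of 15 smooth muscle genes limma called 1 higher (7.61% of all genes were) and 2 lower (4.48% were), and 5 had an interval within 2-fold. The list median was -0.36 against control and 0.06 against sham. Des, given above, is 1 of those lower, and without 100 dpi replicate 1 or control replicate 1 or 3 the lower count was 1. Mylk, the kinase that activates smooth muscle myosin, had 222, 186 and 195 in control and 529, 898 and 472 at 100 dpi (1.59 ± 0.25 SE, limma adjusted p = 0.000865) and was also called against sham (1.09, adjusted p = 0.0138). Cnn1, calponin 1, an actin-binding inhibitor of contraction, had 39476, 54787 and 53215 in control and 18477, 20465 and 24012 at 100 dpi (-1.22 ± 0.18 SE, adjusted p = 0.00063). Each gene was called in all 6 refits and its groups did not overlap. For Cnn1 the sham libraries stood at 28131, 18338 and 24885, inside or near the 100 dpi range, and the difference from sham was -0.17 (adjusted p = 0.647). Acta2, smooth muscle actin, was not called (-0.43, interval -1.05 to 0.20). Pericyte genes had 6 of 9 within 2-fold of control, with 0 calls by limma, edgeR or DESeq2 and 1 higher and 1 lower at an unadjusted p under 0.05.

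The 12 largest rises at 100 dpi ranged from 3.36 to 4.66 on the log2 scale and none belongs to the cardiac, matrix or vascular lists. They were Nbeal1, Cbx6, Zcchc24, Unc5b, Rcan2, Tmod2, Agtr1b, Usp49, Cbx7, Fignl2, Cd109 and Lcor. All 12 were called against sham too and in all 6 refits, and Cd109 lost its call with a pseudocount of 0.1 (adjusted p = 0.0544). Usp49 and Tmod2 had at most 3 reads in any control, so their fitted changes depend on the pseudocount. Nbeal1, a BEACH-domain protein, had 12.1, 8.1 and 17.2 normalized counts in control and 346, 313 and 318 at 100 dpi (4.66 ± 0.26 SE, limma adjusted p = 4.17e-08). Zcchc24, a zinc finger protein, had 47.3, 38.5 and 70.6 and then 993, 920 and 1025 (4.25 ± 0.25 SE, adjusted p = 4.81e-08). In both genes the 3 libraries of 100 dpi lay close together and far above control.

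A pair of these 12 genes encodes chromobox readers of histone methylation in Polycomb complexes. Cbx6 had 3.02, 6.08 and 8.14 in control and 118, 120 and 146 at 100 dpi (4.33 ± 0.43 SE, limma adjusted p = 1.81e-05). Cbx7 had 21.1, 22.3 and 20.8 and then 246, 244 and 322 (3.59 ± 0.30 SE, adjusted p = 3e-06). The reference annotation of RefSeq for this species places them on 1 chromosome with 0 protein-coding genes between them. At 14 dpi they differed: Cbx6 was already raised at 26.3, 39.5 and 30.0, whereas Cbx7 was at 23.9, 14.0 and 21.9. Whether the counting could assign reads of one to the other was not tested.

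Signalling genes in this group included Unc5b, a netrin receptor that guides axons and vessels. Unc5b had 8.05, 9.12 and 9.95 in control and 188, 138 and 151 at 100 dpi (3.99 ± 0.36 SE, limma adjusted p = 6.89e-06). Rcan2, a regulator of the phosphatase calcineurin, had 98.6, 103 and 135 and then 1226, 1500 and 1896 (3.76 ± 0.37 SE, adjusted p = 1.93e-05). Agtr1b, named for an angiotensin II receptor of mice, had 16.1, 14.2 and 44.3 and then 239, 274 and 331 (3.62 ± 0.33 SE, adjusted p = 7.47e-06). All 3 were high at 30 dpi as well, and in sham Rcan2 reached 309 in replicate 3. At 30 dpi Unc5b had 163, 182 and 258, Rcan2 2026, 2325 and 2617, and Agtr1b 335, 290 and 286.

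About as many of the rises were shared with 30 dpi as were not. Limma called 586 genes higher at 30 dpi than in sham (5.95%), and 376 of them were called higher at 100 dpi than in control. These 376 make up 64.2% of the first set and 50.2% of the 749 rises, against 7.61% called higher among all genes. The 2 differences share no library, but both calls use the spread of all libraries in 1 model. Between 30 and 100 dpi limma called 0 of the 376 different, and 32 differed at an unadjusted p under 0.05, among genes chosen for being high at both times. Among all 9848 genes it called only 30 higher and 48 lower at 100 than at 30 dpi, so the 0 does not set the 376 apart. The 30 and 100 dpi libraries are also those that the first principal component and the Lars2 row set apart from the rest, and the part of that in the shared rises was not tested. Of 136 genes lower at 30 dpi than in sham (1.38%), 116 were within 2-fold of control at 100 dpi (85.3%, against 73.5% of all genes). Of the same 136, 9 were called lower than control, where 4.48% of all genes were.

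**Figure D5:**
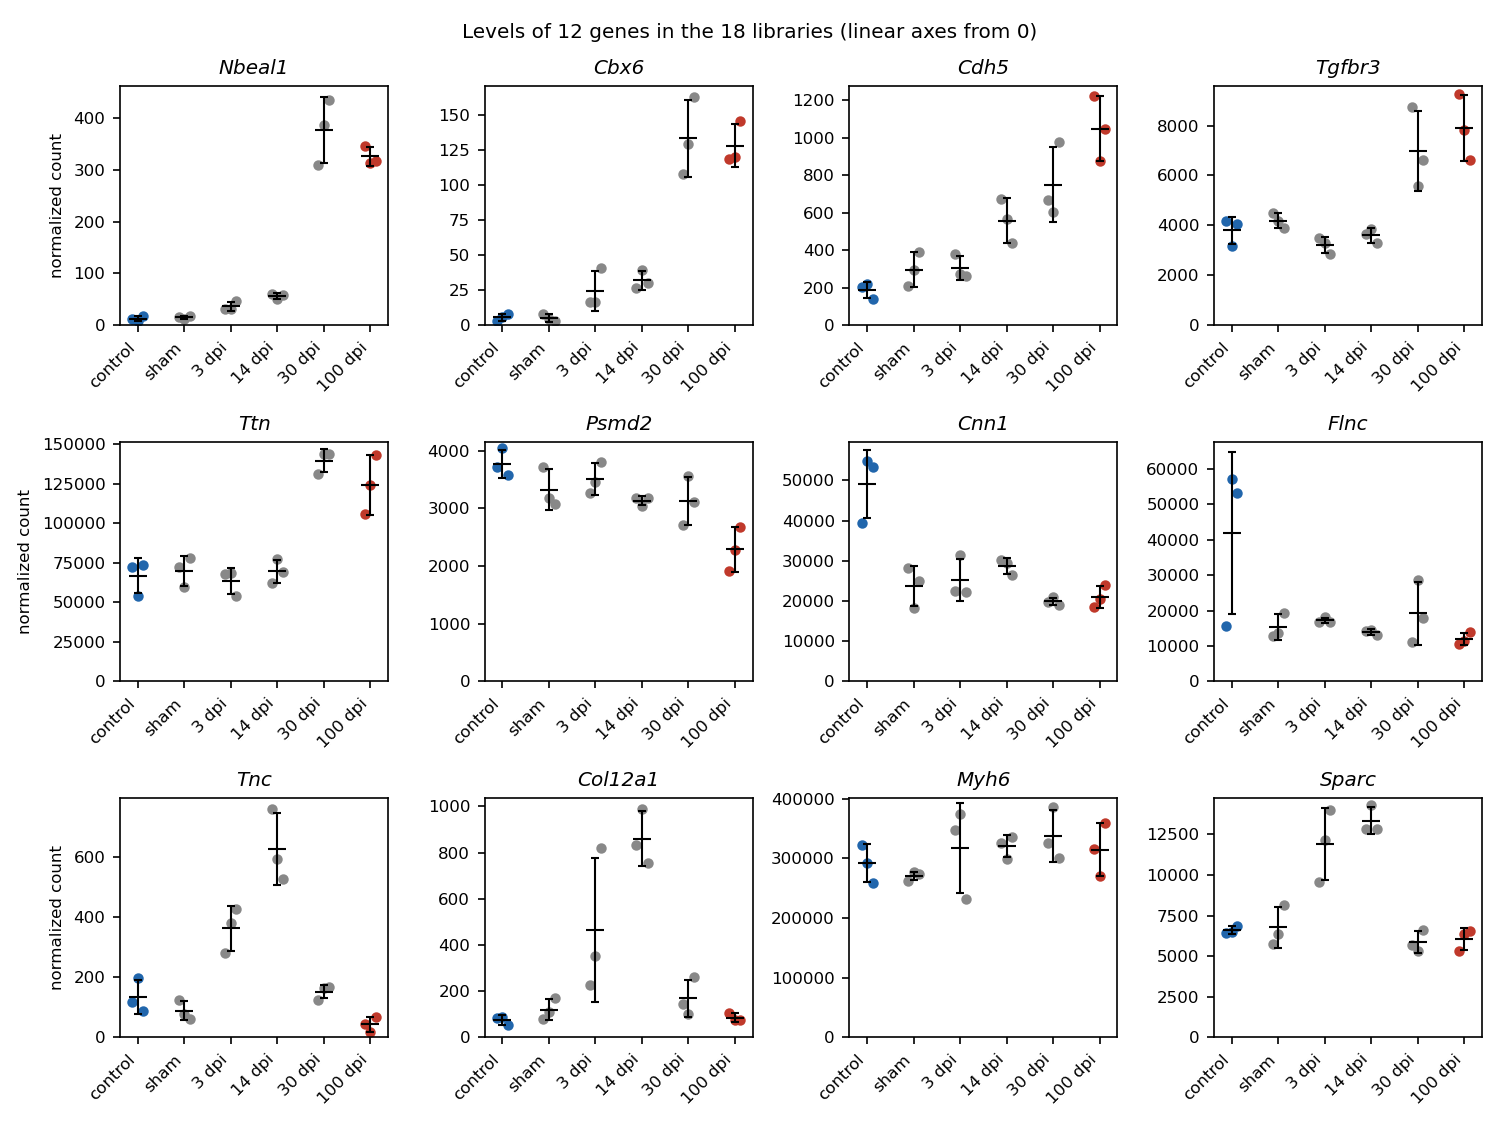
Normalized counts (vertical axes from 0) of 12 genes in each library by group, with control in blue, 100 dpi in red, and mean ± SD (n = 3) in black. Nbeal1, Cbx6 and Ttn are highest at 30 and 100 dpi, Col12a1 and Sparc peak at 14 dpi and are near control at 100 dpi, and Cnn1 and Flnc are low in sham as well as at 100 dpi.

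The largest falls were in genes of low or uneven level. Pvalb, the calcium buffer parvalbumin, had 43.3, 76.0 and 99.5 normalized counts in control and 0 in all 3 libraries at 100 dpi, at least 31.3-fold lower when each 0 is set to a floor of 3 reads per library. It was also at 0 in 2 of the 3 sham libraries, and its call (limma, adjusted p = 0.019) was lost without 100 dpi replicate 1 or control replicate 2 or 3 (adjusted p at most 0.0616) and in edgeR's test (0.0595). Cpz, a carboxypeptidase of the matrix, had 320, 242 and 206 in control and 4.78, 8.04 and 12.1 at 100 dpi, and sham replicate 1 and 30 dpi replicate 2 were as low, at 7.14 and 5.27. Its call (-4.85, adjusted p = 0.024) was kept without 100 dpi replicate 3 only (at most 0.0821 in the other 5 refits). Pon2, a paraoxonase, was steadier at 66.4, 71.9 and 68.8 in control and 10.5, 28.6 and 17.8 at 100 dpi (-1.91 ± 0.36 SE, limma adjusted p = 0.00372, called in all 6 refits), with 39.3, 25.7 and 35.2 in sham and no call against it (-0.87, adjusted p = 0.166). Prph, peripherin, a neuronal intermediate filament, fell from 23.2, 26.3 and 22.6 to 3.82, 8.93 and 3.86 (-2.02, adjusted p = 0.0115) and was called against sham (-1.67, adjusted p = 0.0397), but not in the fit of only the 2 groups (0.0587). Col9a2, a chain of collagen IX that is in none of the lists, had 18.1, 60.8 and 75.1 in control and 0, 3.57 and 1.45 at 100 dpi (-4.32, limma adjusted p = 0.0103, called in all 6 refits). Sham replicates 2 and 3 were as low, at 3.43 and 3.61, and it was not called against sham (-2.12, adjusted p = 0.213). The other 7 of the 12 largest falls were Msx1, Tmem158, Star, Igsf11, Nacad, Pbp2 and Ntng1.

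The proteasome, which degrades tagged proteins, had a larger share of lower calls than any other list described here. Limma called 14 of 30 proteasome subunits lower (46.7%, against 4.48% of all genes) and 0 higher, with a list median of -0.36. The falls were small, and 29 of 30 intervals lay within 2-fold. Psmd2, a base subunit of the regulatory particle, had 3710, 4044 and 3573 normalized counts in control and 1906, 2278 and 2681 at 100 dpi (-0.73 ± 0.13 SE, adjusted p = 0.002). Psmc6, an ATPase of that particle, had 1210, 1310 and 1286 and then 852, 842 and 855 (-0.58 ± 0.09 SE, adjusted p = 0.0012). Psmb4, a subunit of the catalytic core, had 1704, 1689 and 1908 and then 1033, 1175 and 1332 (-0.59 ± 0.12 SE, adjusted p = 0.00702). In each gene every 100 dpi library was below every control, and the calls held in all 6 refits and with the length trend removed. The list count was 12 with the length trend removed and 7 in the fit of only the 2 groups. It was 5 without 100 dpi replicate 1, 8 without replicate 2, 13 without replicate 3, 9 without control replicate 1 or 2, and 6 without control replicate 3. Against sham 4 of the 14 were called lower, with a list median of -0.23. The lean was not particular to 100 dpi. Library medians of the list were below all 3 controls in sham (-0.13 to -0.08), at 14 dpi (-0.27 to -0.08) and at 30 dpi (-0.57 to -0.19) as well.

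Heat shock and unfolded protein response genes were also below control, and limma called 0 of them lower than sham. Limma called 10 of 33 lower than control (30.3%, against 4.48% of all genes) and 0 of those 10 lower than sham (DESeq2 called 13 lower than control and edgeR 10). The list median was -0.35 against control and -0.04 against sham. Hspb8, a small heat shock protein, had 4622, 7909 and 8236 in control, 4282, 3499 and 4192 in sham, and 2439, 3300 and 3656 at 100 dpi (-1.12 ± 0.23 SE from control, limma adjusted p = 0.007; -0.36 from sham, adjusted p = 0.391). Bag3, its partner in clearing damaged filamin, had 2374, 2605 and 2894 in control, 2348, 1947 and 1914 in sham, and 1355, 1408 and 1877 at 100 dpi (-0.77 from control, adjusted p = 0.0086; -0.43 from sham, adjusted p = 0.137). In both genes 100 dpi lay below all controls. The 3 Bag3 libraries at 100 dpi were also below all 3 shams, and those of Hspb8 overlapped sham. The count of 10 was 4 without 100 dpi replicate 1, 5 without replicate 2 or control replicate 3, 6 without control replicate 1, and 8 without 100 dpi replicate 3 or control replicate 2.

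Genes of dividing cells and of the interferon response varied widely between the animals of 1 group. The mitosis list had a median difference of 1.32 from control, but its library medians at 100 dpi were 0.41, 0.39 and 3.07, and in sham 0.18, 1.44 and 3.09. Cdk1, the kinase that starts mitosis, had 15.3, 23.2 and 287 at 100 dpi and 8.05, 11.1 and 12.7 in control (2.08, limma adjusted p = 0.281), with replicate 3 far above the others. Limma and edgeR called 0 of 22 members, DESeq2 called 4 higher, and 1 was higher at an unadjusted p under 0.05. Interferon response genes had medians of 0.01, 1.05 and 1.76 at 100 dpi, with replicate 1 at the control level. Irf1, an interferon-induced transcription factor, had 211, 1723 and 762 at 100 dpi against 128, 178 and 247 in control (1.87, adjusted p = 0.0551). Limma called 0 of 13 members, edgeR 2, DESeq2 4, and 4 were higher at an unadjusted p under 0.05. Cdk1 and Irf1 were named after their values were seen.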

How the data were processed

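PolyA RNA of 18 geckos was measured. The values tested are the normalized counts that the authors deposited, a signal made by dividing gene counts by a size factor per library. Levels between genes are in FPKM, scaled by length and depth by the authors. HISAT2 2.2.0, StringTie 2.2.1 and Salmon 1.8.0 are named in the submitters' processing notes. Per the labels' design text, the alignment used the gecko's own genome, and assembled transcripts took their names from mouse genes, which may split or merge some genes. In each library 100.0% of the deposited normalized counts were whole multiples of 1 step, within 0.001 of a read, and reads were recovered by dividing by it. Libraries held 12646411 to 34898541 reads. A floor of 3 reads covers counting error only.

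Log2(normalized count + 1) values of all 18 libraries entered 1 limma-trend model (limma 3.58.1, R 4.3.3) with 6 groups and no block. It was two-sided, with Benjamini-Hochberg adjustment over 9848 genes and 95% intervals, and all fold changes are on this scale, which understates changes of low genes. The spread is shared by all groups (12 residual and 3.60 prior degrees of freedom), since 3 against 3 alone leaves 4 residual degrees of freedom. An exact rank test of 3 against 3, which was not used, cannot go below a p of 0.1. Scripts were tested on simulated data. EdgeR 4.0.16 and DESeq2 1.42.0 on recovered reads, other factors, filters, pseudocounts, FPKM (pseudocount 0.1, minimum mean 0.5), thinning, a length correction (length taken as the ratio of normalized count to FPKM) and each library left out were alternatives. Figures were drawn with matplotlib 3.10.9 in Python 3.11.15.

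P-values measure the spread between animals. The genes and lists were chosen with earlier results of these data known. Named genes are the 12 largest rises and falls among called genes whose groups do not overlap, the 3 members of each cardiac, energy, matrix and vascular list highest in FPKM, up to 6 called members of each list, the 6 largest rises at 14 dpi over sham, and others said to be chosen after their values were seen. List members cited only for a list's range fall outside it. No list was tested as a set.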

Additional observations from a re-analysis of the deposited data

How the results depend on the processing

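The counts of 749 rises, 441 falls and 7240 genes within 2-fold of control, and the 25 of the 14 dpi rises within 2-fold, moved by at most 1.5 times under TMM factors, both other pseudocounts, no filter, a minimum over all libraries, FPKM and thinning. EdgeR gave 807 rises and 422 falls and no interval. DESeq2 gave 751 falls, and 86 genes within 2-fold in its own larger set of 14 dpi rises. With the length trend removed there were 426 rises and 667 falls, and with only the 2 groups in the fit 262 falls; that fit cannot give the 14 dpi result. A bound of 1.5-fold instead of 2-fold left 3821 genes and 8 of the 14 dpi rises within it. Without 1 library, the count of rises ranged from 453 to 560, of falls from 145 to 263, of genes within 2-fold from 6759 to 6953 and of 14 dpi rises within it from 18 to 23, with the lowest counts of rises and falls without 100 dpi replicate 1. The cause was not tested.

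Controls and 100 dpi animals share replicate numbers, but same-numbered libraries did not deviate together (correlations of 0.05, -0.19 and -0.05). With a replicate block there were 690 rises, 343 falls, 7217 genes within 2-fold and 19 of the 14 dpi rises within it. Depth limits genes of few reads, such as Usp49 and Tmod2 in control.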

Other observations

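Ribosomal protein genes were measured tightly and lay slightly below control. All 74 cytosolic ribosomal protein genes had a negative log2 difference at 100 dpi, all with intervals within 2-fold, and the median was -0.25. Limma called Rpl15 lower (-0.44, adjusted p = 0.0298, kept without 100 dpi replicate 2 only and at most 0.102 otherwise), and DESeq2 called 3. Against sham the median was -0.02, and limma called 0 in either direction against it. Mitochondrial ribosomal proteins had 44 of 45 within 2-fold, a median of -0.18 and 1 call lower.

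Genes of nerve and Schwann cells had the lowest median of the lists, -1.001 over 12 measured members, with library medians of -1.19, -0.47 and -1.30 at 100 dpi. Limma called Prph and Ncam1 lower, and both were also called lower than sham, but neither was called in the fit of only the 2 groups (adjusted p = 0.0587 and 0.0646). Ncam1, the neural cell adhesion molecule, which cardiac muscle also expresses, had 16545, 13512 and 7970 normalized counts in control and 5284, 7217 and 6086 at 100 dpi (-0.98, limma adjusted p = 0.0108), and it lost its call without 100 dpi replicate 1 (adjusted p = 0.051). Of the defining genes of the list, Dbh, Chat and Nefm were at 0 in all libraries of both groups. Epicardial genes had a median of -0.65 over 7 members, with no call by limma, edgeR or DESeq2 and 1 lower at an unadjusted p under 0.05. Antioxidant genes leaned low: 21 of 24 differences were negative, with a median of -0.32. Limma called 3 lower (12.5%, against 4.48% of all genes) and 0 higher, and DESeq2 called 5 lower. Limma's lower count was 1 without 100 dpi replicate 1, and 4 without 100 dpi replicate 3 or control replicate 3. Against sham the list median was -0.19, and limma called 2 lower. Keap1, which restrains the antioxidant factor Nrf2, was lower at 581, 575 and 607 than at 777, 902 and 887 in control (-0.54, limma adjusted p = 0.00533), also against sham (-0.45, adjusted p = 0.0174).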
